A study of Mus musculus with 15 samples.

Results

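Autophagy genes were followed in microglia, the resident macrophages of the brain, sorted from mice by flow cytometry and measured by RNA sequencing. The genes are 40 symbols chosen by name: the kinases, lipid kinase, membrane proteins, conjugation enzymes, Atg8 proteins and cargo receptors that build autophagosomes, with the transcription factors and the mTOR genes that regulate them. Only symbols present among the 13834 genes of the deposited table were taken, so their presence is not a result. All 40 passed the filter on low values. The series asked whether a microglial phenotype of age can be reversed, and its 15 libraries form 4 groups. The PLX5622 group (n = 4) came from 18-month-old mice that received PLX5622, an inhibitor of the CSF1 receptor that is used to deplete microglia. The AF-high group (n = 5) and the AF-low group (n = 3) came from untreated mice of the same age and were separated by high or low autofluorescence, a property that lipofuscin and other indigestible lysosomal contents give to aged cells. Microglia of 3-month-old mice made up the young group (n = 3). The labels do not state the autofluorescence gate of the PLX5622 and young cells, the dose and schedule of the compound, or the strain and sex of the mice, so age or treatment cannot be told apart from the gate. The titles call the libraries biological replicates; whether each is 1 mouse or a pool is not stated, and a p-value here compares a difference only with the spread among libraries, which may be partly technical. In sorted cells measured in bulk, fewer cells of a type and less RNA per cell cannot be told apart.

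Autophagy encloses cytoplasm in a double membrane, the autophagosome, and delivers it to lysosomes. The ULK kinase complex starts the process, a phosphatidylinositol 3-kinase complex marks the membrane with its lipid product, and WIPI proteins read that mark. A pair of ubiquitin-like conjugation systems then attaches Atg8 proteins, the LC3 and GABARAP families, to the growing membrane, where they hold cargo receptors that have bound ubiquitinated material. The kinase mTOR, in a complex with raptor, restrains both the ULK complex and the transcription factors Tfeb, Tfe3 and Mitf. In microglia part of the same machinery also attaches Atg8 proteins to the membranes of phagosomes that hold engulfed material. These are matters of protein activity and turnover, and RNA levels do not measure autophagic flux.

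The factors Tfeb, Tfe3 and Mitf bind the E-box CACGTG and its extended form TCACGTGA, so the start sites of the 40 genes were searched for both. Promoter windows of 300 bases, from 250 bases before to 50 bases after the start, came from RefSeq (build GRCm38.p6), with a window for 34 of the 40 genes. CACGTG, which reads the same on both strands, was in a window of 4 of these 34 genes (11.8%) and of 2187 of 27025 genes (8.09%). TCACGTGA, which contains CACGTG and is also the same on both strands, was in 1 of 34 genes (2.94%), Atg3, and in 304 of 27025 (1.12%). The stretches around the 4 matches are shown because they are the only places where those windows hold the motif; they are written 5′ to 3′ on the gene's strand, with CACGTG in capitals. Atg3 at chr16:45158715-45158783 (plus strand), Atg7 at chr6:114670944-114670989 (plus), Atg5 at chr10:44268305-44268343 (plus) and Atg14 at chr14:47568430-47568455 (minus) read as follows.
Atg3: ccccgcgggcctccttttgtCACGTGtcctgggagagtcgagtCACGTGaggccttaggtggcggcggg
Atg7: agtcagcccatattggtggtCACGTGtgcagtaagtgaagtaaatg
Atg5: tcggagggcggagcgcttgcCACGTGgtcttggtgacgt
Atg14: cctggataaaaacaaaatccCACGTG
RefSeq gives some genes several starts (42 windows for the 34 genes), and positions are counted from the start of the window that holds the match. The motif began 94 and 71 bases before that start in Atg3, 132 in Atg7, 14 in Atg5 and 1 base before it in Atg14. The Atg7 and Atg14 matches lie at alternative starts inside the gene as GENCODE draws it, not at its outermost start. Atg3, Atg5 and Atg7 encode parts of the conjugation machinery and Atg14 the subunit that directs the lipid kinase to autophagosomes. A match describes these letters and shows no binding.

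The 40 genes, taken because they were in the table, had a higher median level than all genes of the table. Levels are in TPM, a measure of transcript abundance that is corrected for length, so that genes can be set side by side. A level is given per library or as mean ± SD over the libraries of a group (PLX5622 n = 4, AF-high n = 5, AF-low n = 3, young n = 3), and a difference is on the log2(TPM + 1) scale, first group minus second, ± SE. Averaged over the 15 libraries, 6 members were at 100 TPM or more, 30 between 10 and 100 TPM and 4 under 10 TPM, and the median of the 40 means was 25.4 TPM against 14.4 TPM for all genes of the table. The cargo receptor Sqstm1, known as p62, led with a mean of 839 TPM (502 to 1078 over the libraries), the 160th highest mean in the table. Next came Tax1bp1, a second cargo receptor (214 TPM), Rb1cc1, the scaffold of the ULK complex (193 TPM), Gabarap (143 TPM), Ulk2 (127 TPM) and Tfe3 (107 TPM). The lowest were Atg4d (9.07 TPM), Atg9a (8.42 TPM), Atg14 (8.41 TPM) and Wipi1 (3.97 TPM). Within families the level was unequal: Ulk2 exceeded Ulk1 (16.5 TPM), Wipi2 (25 TPM) exceeded Wipi1, Atg2a (34.3 TPM) exceeded Atg2b (19.4 TPM), and Tfe3 exceeded Mitf (26.8 TPM) and Tfeb (21.4 TPM).

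**Figure D1:**
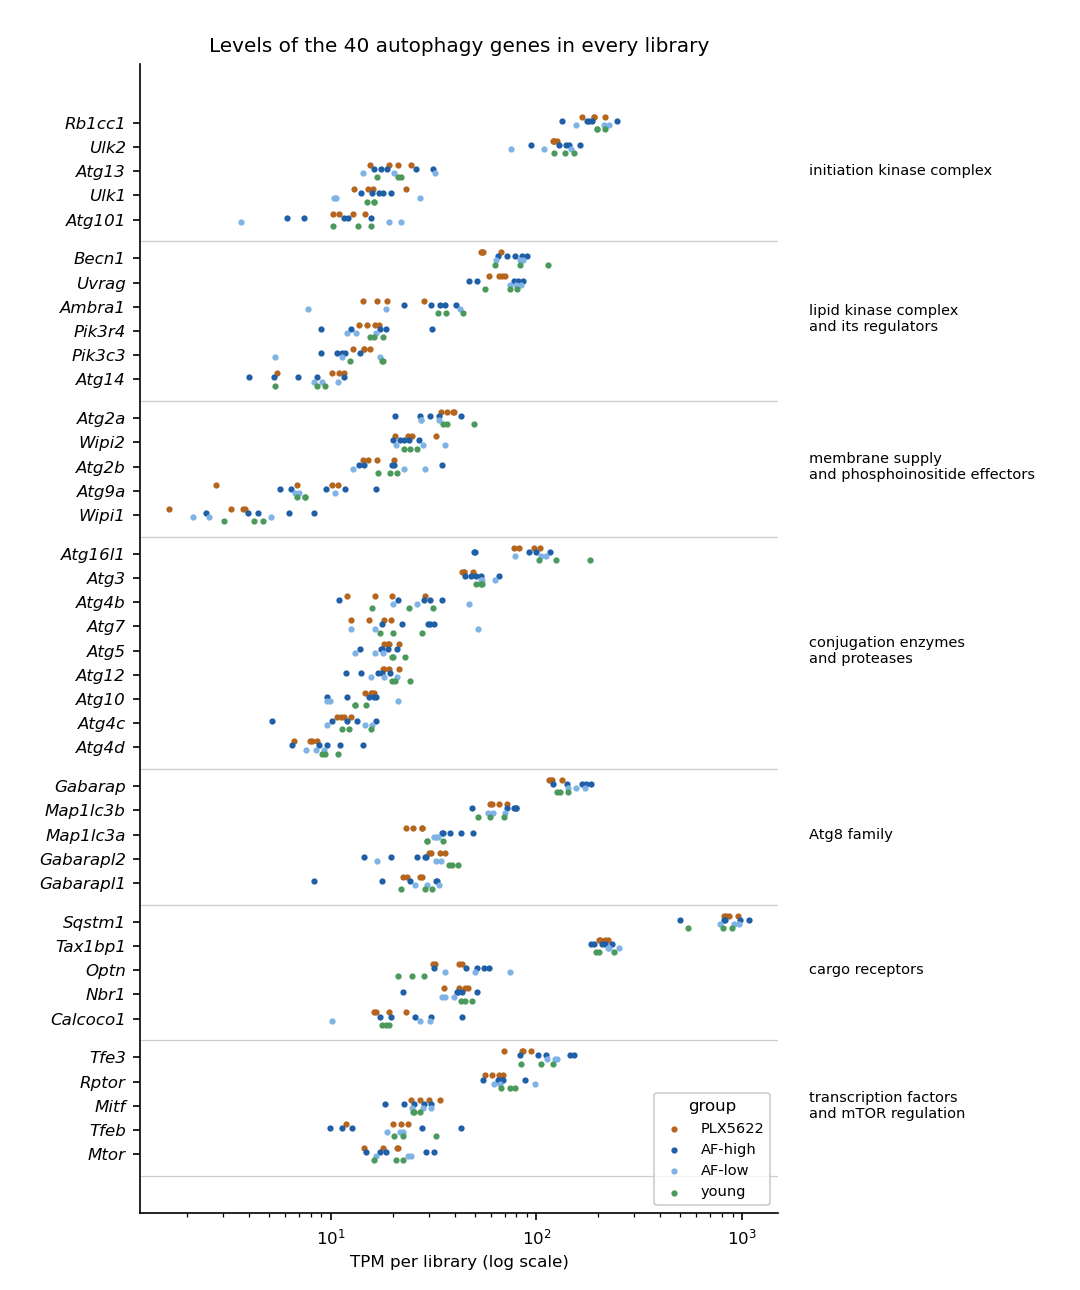
Level of each of the 40 autophagy genes in every library, in TPM on a log axis, grouped by role; each point is 1 library and its colour is its group (PLX5622 n = 4, AF-high n = 5, AF-low n = 3, young n = 3). Sqstm1 stands highest at 502 to 1078 TPM, and the points of the 4 groups lie over each other for most genes.

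The group means of most members lay close together. The highest of a gene's 4 group means was a median of 1.29 times the lowest. It was under 1.5 times for 31 of the 40 genes and 2 times or more for 1, Optn (2.15 times). The highest mean was in PLX5622 for 3 genes, in AF-high for 10, in AF-low for 15 and in young for 12, and the lowest in PLX5622 for 15, in AF-high for 12, in AF-low for 6 and in young for 7. These ratios and counts were not made for all genes, so nothing particular to the members is read from them. The scatter within a group was larger in the gated old cells. The median SD of the members on the log2(TPM + 1) scale was 0.15 in PLX5622, 0.37 in AF-high, 0.28 in AF-low and 0.18 in young, and that of all genes tested was 0.20, 0.39, 0.34 and 0.17 in the same order of groups. Over all genes, the root mean square distance (log2) of a library from the mean of the others of its group was between 0.33 and 0.35 in PLX5622, 0.46 and 0.70 in AF-high, 0.59 and 0.71 in AF-low and 0.34 and 0.39 in young. AF-low 1, AF-high 2, AF-low 2 and AF-high 3 were farthest (0.71, 0.70, 0.66 and 0.66). AF-high 2, AF-high 3 and AF-low 1 are the libraries that an earlier look at these data set apart, so counts were also made without these 3 libraries, a choice made after seeing the data.

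Microglial markers were high in every library, and some markers of other cells were present. All 12 microglial markers looked for were in the table, and their summed level lay between 9454 and 10130 TPM in PLX5622, between 9206 and 12980 in AF-high, between 7172 and 10250 in AF-low and between 10900 and 12640 in young. Markers of border-associated macrophages, 10 of 10 in the table, summed to 177-226 TPM in PLX5622, 314-450.2 TPM in AF-high, 457-597 TPM in AF-low and 239.8-305 TPM in young, groups that did not overlap. Choroid plexus markers, 6 of 10, summed to 32.1 to 369 TPM in the old libraries, against 8778, 5785 and 210.1 TPM in young 1, young 2 and young 3. Astrocyte markers, 9 of 10 with Gfap not among them, summed to 80.1-149.9 TPM in the old libraries and 101-288 TPM in young. Endothelial markers, 5 of 10 with Cldn5 not among them, summed to 172.5-204.2 TPM in PLX5622, 197-315 TPM in AF-high, 186-249.5 TPM in AF-low and 181-287 TPM in young. Markers of T, NK and B cells, 4 of 10 with Cd3e not among them, summed to 154-205 TPM in PLX5622, 179-294 TPM in AF-high, 220.2-279.5 TPM in AF-low and 215-244 TPM in young. Those of monocytes (5 of 8) and oligodendrocytes (6 of 10) summed to at most 87.3 and 91.3 TPM. Neutrophil markers were not listed (0 of 7), and those of neurons, 4 of 10, summed to at most 9.17 TPM. The part of these other cells in the differences below was not tested. Counts were also made without young 1 and young 2, again after seeing the data.

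No autophagy gene passed the test in any of the 6 comparisons. The test was limma's moderated linear model on log2(TPM + 1) over 13175 genes and all 15 libraries, two-sided, with a Benjamini-Hochberg adjusted p under 0.05 as the threshold. All comparisons draw on the same 4 groups, so those that share a group are not independent of each other. In PLX5622 against AF-high 0 of 40 members were called and 0.63% of all genes tested. In PLX5622 against AF-low it was 0 of 40 and 0.144% of all genes, and in PLX5622 against young 0 of 40 and 0.0911%. In AF-high against AF-low it was 0 of 40 and 0% of all genes, in AF-high against young 0 of 40 and 0%, and in AF-low against young 0 of 40 and 0.0455%. Few genes of any kind were called at these group sizes, and a count of 0 is near each background. The intervals say how large a difference was compatible with the data, given 1 spread per gene shared by the 4 groups. The scatter was larger in AF-high and AF-low than in PLX5622 and young. Intervals can therefore be too narrow between the gates and too wide in PLX5622 against young. With only the 2 compared groups in the fit, calls over all genes went from 83 to 7 in PLX5622 against AF-high. The count went from 19 to 0 against AF-low and from 12 to 59 against young. The 95% interval of the log2 difference lay within 1 in either direction for 33 members in PLX5622 against AF-high, 36 against AF-low and 32 against young, and for 32 in AF-high against AF-low, 29 in AF-high against young and 31 in AF-low against young. The median reach of these intervals to either side was 0.47 to 0.57.

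At an unadjusted p under 0.05 the members' share was below that of all genes in 4 comparisons and above it in 2. In PLX5622 against AF-high it was met by 1 member that was higher and 5 that were lower (15%; all genes 15.3%), in PLX5622 against AF-low by 0 and 4 (10%; all genes 14.3%) and in PLX5622 against young by 1 and 2 (7.5%; all genes 5.23%). In AF-high against AF-low it was met by 0 members (0%; all genes 8.21%), in AF-high against young by 2 higher and 3 lower (12.5%; all genes 11%), and in AF-low against young by 1 higher and 2 lower (7.5%; all genes 11.8%). The median log2 difference of the members was -0.046 in PLX5622 against AF-high (all genes -0.018), -0.11 against AF-low (all genes -0.052) and -0.10 against young (all genes -0.11). It was -0.034 in AF-high against AF-low (all genes -0.044), -0.040 in AF-high against young (all genes -0.081) and 0.035 in AF-low against young (all genes -0.037). In PLX5622 against young 11 members were positive and 29 negative, on a scale on which all genes were shifted by -0.11. With each library centred on its median gene 21 members were positive, and with quantile normalization 20, so no direction of the group as a whole was fixed. In PLX5622 against AF-low 14 were positive, and 19 and 20 under the same scalings.

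**Figure D2:**
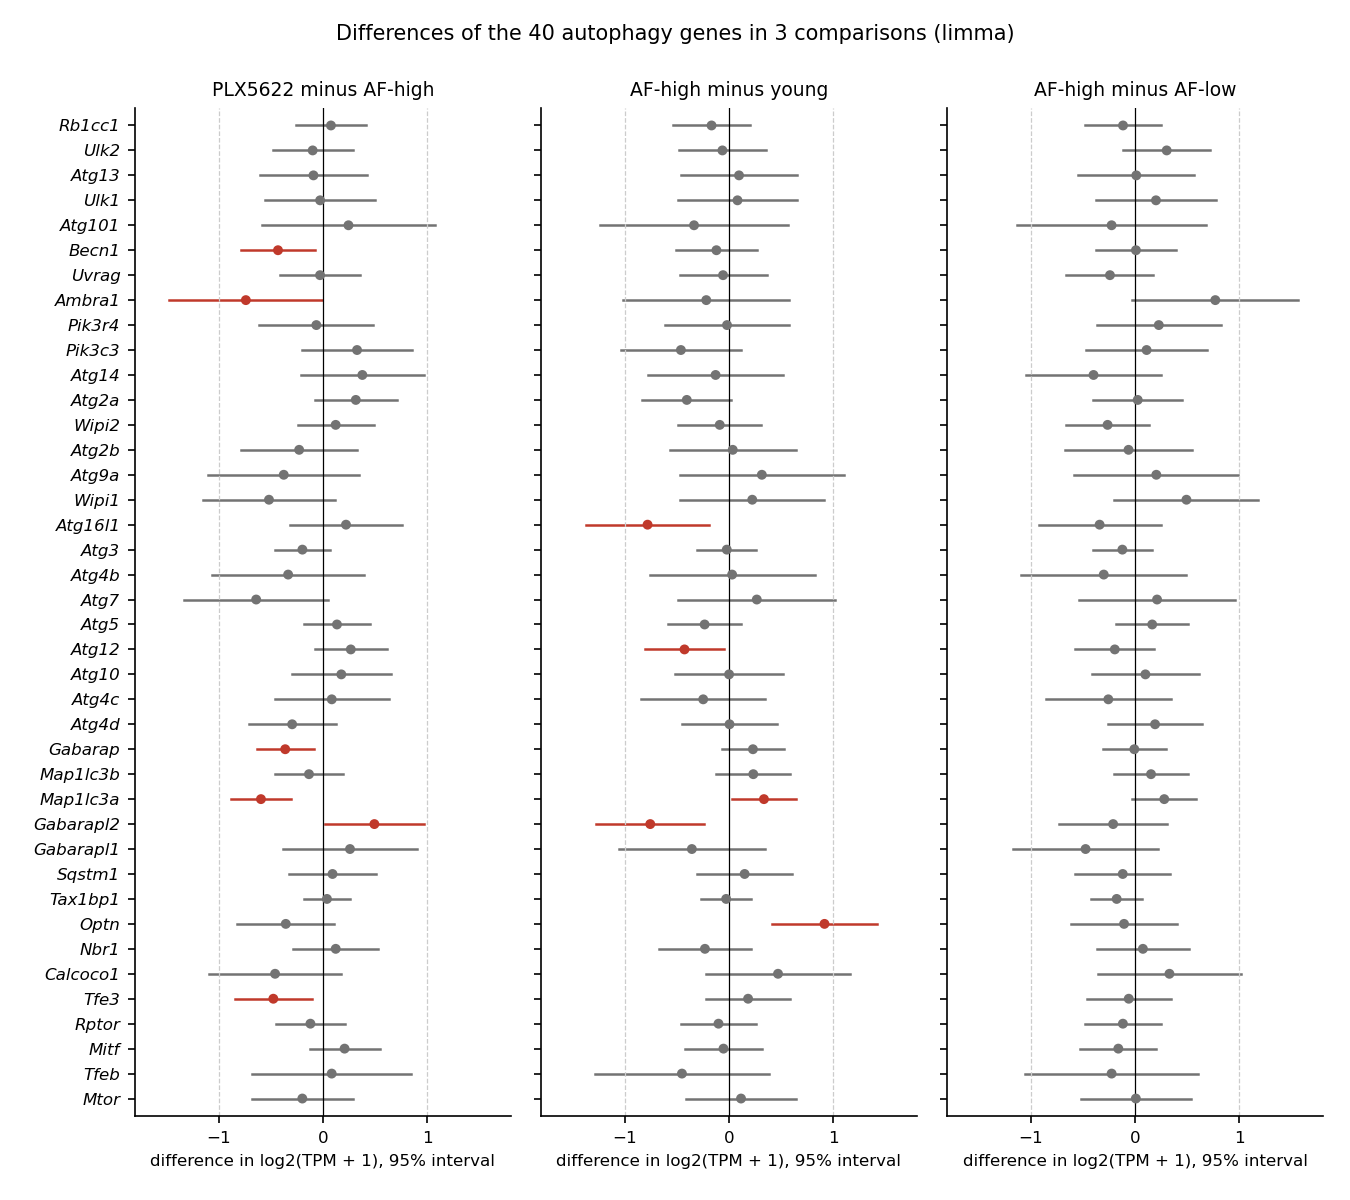
Log2 difference with its 95% interval (limma) for the 40 autophagy genes in 3 of the 6 comparisons (PLX5622 minus AF-high, AF-high minus young, AF-high minus AF-low); points are estimates, lines their intervals, red marks an unadjusted p under 0.05 and dashed lines stand at -1 and 1. The intervals of 33, 29 and 32 genes lie within the dashed lines in these comparisons, and red marks 6, 5 and 0 genes.

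The log2 differences of the initiation complex lay between -0.37 and 0.30 over all comparisons. None of its 5 genes (0) reached an unadjusted p under 0.05 in any comparison; with 5.23% to 15.3% of all genes tested doing so per comparison, a count of 0 among 5 is near the background. Ulk1 and Ulk2 encode its kinases, Atg13 and Atg101 its regulatory subunits and Rb1cc1 its scaffold, FIP200. Rb1cc1 was at 192 ± 20.1 TPM in PLX5622, 184 ± 40 in AF-high, 199 ± 37.8 in AF-low and 204 ± 11.2 in young. Ulk1 was at 16.8 ± 4.43 TPM in PLX5622, 16.9 ± 2.07 in AF-high, 16.1 ± 9.73 in AF-low and 15.8 ± 0.664 in young. The AF-low mean rested on AF-low 1 at 27.3 TPM; AF-low 2 and AF-low 3 were at 10.3 and 10.6 TPM, under every library of the other groups. Ulk2 was the member of the complex named between the gates: its values were 93.8, 145, 162, 128 and 139 TPM in AF-high and 75.3, 147 and 109 TPM in AF-low (log2 difference 0.30 ± 0.20, 95% interval -0.11 to 0.72, adjusted p = 0.7). AF-low 1 gave the lowest of these values and the groups overlapped. Without AF-high 2, AF-high 3 and AF-low 1 the difference had the opposite sign (-0.089), so no direction is given for Ulk2. Atg13 lay between 14.3 and 32.3 TPM over the libraries. Atg101 was the most scattered member in AF-low, at 3.64, 19.1 and 22 TPM.

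Of the lipid kinase complex, Becn1 and Ambra1 carried the differences. Becn1 encodes Beclin 1, the regulatory core of the complex, and Ambra1 a scaffold that binds Beclin 1 and controls its activity. Becn1 was at 55, 53.5, 54.2 and 67.1 TPM in PLX5622, 71.6, 78.2, 65.2, 84.8 and 90 in AF-high, 86.5, 63.7 and 82.9 in AF-low and 62.9, 83.7 and 114 in young. The PLX5622 libraries were lowest apart from PLX5622 4, which overlapped the lowest library of each other group. The difference was -0.43 ± 0.17 against AF-high, -0.42 ± 0.19 against AF-low and -0.55 ± 0.19 against young, at unadjusted p = 0.02, 0.0408 and 0.0105 and adjusted p = 0.227, 0.327 and 0.642 (limma). Becn1 passed against young when limma weighted each library by its scatter (-0.63, adjusted p = 0.0275, range over alternatives 0.0275 to 1). That setting called 420 genes in all in this comparison, against 12 as reported. With each library left out in turn, the Becn1 difference from young ran from -0.76 to -0.34. Of the 31-base words of Becn1 transcripts 40% also occur in another gene, on either strand, and the exons of Becn1 overlap those of Cntd1 on the opposite strand. Nothing in the labels says whether strand was used in assigning reads, so a share of the Becn1 value may belong to Cntd1.

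Ambra1 varied more between libraries. It was at 28.2, 14.3, 16.8 and 18.8 TPM in PLX5622, 33.9, 30.6, 22.7, 40.8 and 36 in AF-high, 42.4, 7.76 and 18.5 in AF-low and 44.2, 33.1 and 36.4 in young. All 4 PLX5622 libraries were under all 3 young ones, while the AF-low libraries ran from the lowest value of all up into the young range. The difference between PLX5622 and young was -0.96 ± 0.39 (interval -1.79 to -0.12, adjusted p = 0.899), and that between AF-low and young -0.99 ± 0.42 (interval -1.88 to -0.10, adjusted p = 0.365). The AF-low difference from young was -1.56 without AF-low 1 and -0.41 without AF-low 2. AF-high and AF-low differed by 0.77 ± 0.37 (interval -0.028 to 1.57, adjusted p = 0.627), the largest difference of any member between the gates; it was 1.35 without AF-low 1 and 0.19 without AF-low 2. Library weights brought the difference between PLX5622 and young past the threshold (-0.91, adjusted p = 0.0431, range over alternatives 0.0431 to 1). With these weights 420 genes were called in all, as given for Becn1. The other 4 genes of the complex did not reach an unadjusted p under 0.05 in any comparison (0). With 5.23% to 15.3% of all genes doing so per comparison, this is near the background. Pik3c3, the catalytic subunit Vps34, was at 14.3 ± 1.16 TPM in PLX5622, 11.3 ± 1.77 in AF-high, 11.4 ± 6 in AF-low and 16 ± 3.18 in young. Uvrag, which replaces Atg14 in the endosomal form of the complex, was at 65.7 ± 5.03, 68.9 ± 18.1, 79.2 ± 4.9 and 70.3 ± 12.4 TPM in the same order of groups. Pik3r4, the regulatory subunit Vps15, lay between 8.97 and 31 TPM over the libraries, and Atg14 between 4 and 11.6 TPM.

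The 5 genes of membrane supply were likewise at 0 of 5 at an unadjusted p under 0.05 in each comparison, near the same background of 5.23% to 15.3%. Atg9a encodes the scramblase on the vesicles that seed the membrane, Atg2a and Atg2b the lipid transfer proteins that feed it, and Wipi1 and Wipi2 the readers of the lipid mark. Atg2a was at 37.5 ± 2.52 TPM in PLX5622, 30.8 ± 8.38 in AF-high, 29.5 ± 3.54 in AF-low and 40.4 ± 7.92 in young. Wipi2 was at 25.3 ± 4.98 TPM in PLX5622, 23 ± 2.48 in AF-high, 28.3 ± 7.59 in AF-low and 24.5 ± 1.83 in young. Atg2b lay between 12.8 and 34.7 TPM and Wipi1 between 1.64 and 8.24 TPM over the libraries. Atg9a lay between 2.77 and 16.6 TPM over the libraries, and 32.4% of its 31-base words are shared, mostly with the overlapping model Gm29253 on the same strand.

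Among the conjugation genes, Atg16l1 and Atg12 stood lower in AF-high than in young cells. Atg16l1 holds the Atg12-Atg5 conjugate on the membrane and is also required for attaching Atg8 proteins to phagosomes. It was at 97.7, 82.4, 77.9 and 104 TPM in PLX5622, 49.9, 50, 117, 92.5 and 99.8 in AF-high, 78.6, 112 and 106 in AF-low and 181, 104 and 125 in young. Young 1 was the highest library, and 1 AF-high library, AF-high 3, exceeded young 2. The AF-high and young groups differed by -0.78 ± 0.27 (interval -1.36 to -0.19, adjusted p = 0.309). The ubiquitin-like Atg12 was at 14, 11.8, 17.7, 17 and 19.4 TPM in AF-high and 20.5, 24.2 and 19.9 TPM in young, without overlap (difference -0.43 ± 0.18, adjusted p = 0.396). Its partner Atg5 was at 16.3, 17.8 and 13.1 TPM in AF-low and 19.9, 20 and 22.9 TPM in young, also without overlap (difference -0.40 ± 0.18, interval -0.79 to -0.0095, adjusted p = 0.409). Groups failed to overlap for 3 of the 40 members in AF-high against young (all genes 7.78%) and for 6 in AF-low against young (all genes 19.3%).

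Atg3 is the enzyme that transfers Atg8 proteins to lipid, and its promoter window holds 2 of the E-boxes shown above. Their part in its level was not tested. Atg3 was lower in PLX5622 than in AF-low. It was at 43.4, 44.5, 44.5 and 49.4 TPM in PLX5622 and 54.5, 62.8 and 53.7 TPM in AF-low, with all 4 PLX5622 values under all 3 AF-low values (difference -0.32 ± 0.14, interval -0.61 to -0.022, adjusted p = 0.314). Groups failed to overlap for 7 of the 40 members in this comparison, and for 16.2% of all genes. AF-high values of Atg3 ran from 44.9 to 65.5 TPM and young values from 50.9 to 54.4 TPM. Atg7, the activating enzyme of both conjugation systems, was at 19.7, 18.1, 12.6 and 15.4 TPM in PLX5622, 29.8, 31.8, 30.4, 17.7 and 22.3 in AF-high, 52.1, 12.5 and 16.3 in AF-low and 17.4, 20 and 27.7 in young. AF-low 1 was the highest library and AF-low 2 the lowest. The E2 enzyme Atg10 and the proteases Atg4b, Atg4c and Atg4d, which trim Atg8 proteins, gave no difference at an unadjusted p under 0.05 in any comparison (0). For so few genes this is near the background of 5.23% to 15.3% of all genes per comparison. Over the libraries Atg10 lay between 9.56 and 21.3 TPM, Atg4b between 10.9 and 46.8, Atg4c between 5.16 and 16.6 and Atg4d between 6.49 and 14.4 TPM.

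The Atg8 family held the member nearest to the threshold, Map1lc3a in PLX5622 against AF-high. Map1lc3a and Map1lc3b encode LC3A and LC3B, and Gabarap, Gabarapl1 and Gabarapl2 the GABARAP proteins, which act more in closure and fusion of autophagosomes. Map1lc3a (chr2:155276297-155278073, plus strand) was at 25.1, 27.6, 23.1 and 27.8 TPM in PLX5622, 42.8, 34.5, 35, 49.1 and 37.9 in AF-high, 33.2, 31.7 and 32.3 in AF-low and 35, 29.3 and 29.4 in young. All 4 PLX5622 libraries lay under every library of the other groups, and all 5 AF-high libraries lay above all 3 AF-low ones. Between PLX5622 and AF-high the groups failed to overlap for 2 members (all genes 6.55%), between AF-high and AF-low for 1, this gene (all genes 2.76%), and between PLX5622 and young for 6 (all genes 16%). The difference was -0.59 ± 0.13 against AF-high (interval -0.88 to -0.31, adjusted p = 0.0541, limma), -0.31 ± 0.15 against AF-low (adjusted p = 0.361) and -0.26 ± 0.15 against young (adjusted p = 0.979). Between AF-high and AF-low it was 0.28 ± 0.14 (interval -0.029 to 0.59, adjusted p = 0.645). The value against AF-high depended on single libraries: it passed without AF-high 3 (adjusted p = 0.0456) and without AF-low 1 (0.0482), and over all alternatives its adjusted p ran from 0.017 to 0.224. Over all genes 119 were called without AF-high 3 and 171 without AF-low 1, against 83 as reported. None of the 31-base words of Map1lc3a (0%) is shared with another annotated gene.

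Gabarap, the most abundant of the 5, was also lowest in PLX5622 by group mean. It (chr11:69991143-69994951, plus strand) was at 117, 119, 115 and 133 TPM in PLX5622, 185, 120.2, 141, 175 and 168 in AF-high, 156, 142 and 173 in AF-low and 130.2, 142 and 127 in young. The PLX5622 values were under all AF-low values and under all but 1 of the AF-high values, AF-high 2, which lay within the PLX5622 range. The difference was -0.36 ± 0.13 against AF-high (interval -0.64 to -0.087, adjusted p = 0.195) and -0.37 ± 0.15 against AF-low (interval -0.68 to -0.056, adjusted p = 0.276). Without AF-high 2, AF-high 3 and AF-low 1, Gabarap (-0.53, adjusted p = 0.0371, range over alternatives 0.0371 to 0.441) and Map1lc3a (-0.71, adjusted p = 0.0318) both passed against AF-high. Over all genes 286 were called then, against 83 as reported. The libraries left out were chosen after seeing the data, and AF-high 2 and AF-high 3 held the lowest AF-high values of both genes.

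Gabarapl2 ran the other way between the old groups. It (chr8:111940703-111953612, plus strand) was at 33.9, 30.6, 36 and 29.9 TPM in PLX5622, 29.1, 19.6, 14.5, 26.1 and 28.6 in AF-high, 16.8, 34.4 and 32.3 in AF-low and 38.8, 41.6 and 37.4 in young. All PLX5622 and young libraries lay above all AF-high libraries, and the young group lay above every other group. Gabarapl2 differed by -0.75 ± 0.24 between AF-high and young (interval -1.27 to -0.23, adjusted p = 0.278) and by 0.49 ± 0.22 between PLX5622 and AF-high (adjusted p = 0.309). A share of 15.3% of its 31-base words occurs elsewhere, chiefly in Gm3724. Map1lc3b was at 65.5, 60.5, 59.4 and 71.7 TPM in PLX5622, 79.8, 48.8, 79.8, 71.8 and 77.8 in AF-high, 58.1, 61.8 and 70.4 in AF-low and 51.9, 69.4 and 59.4 in young. AF-high 2 was the lowest library of all and the groups overlapped. Gabarapl1 was at 22.6, 23.6, 27.1 and 27.6 TPM in PLX5622, 32.5, 8.25, 17.8, 32.8 and 24.2 in AF-high, 33.6, 25.5 and 29.4 in AF-low and 28.6, 31.1 and 22 in young, again with AF-high 2 lowest.

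The summed level of the 5 Atg8 genes overlapped between groups, while its make-up differed in places. The sum averaged 269 ± 14.2 TPM in PLX5622, 316 ± 56.3 in AF-high, 310.2 ± 23.9 in AF-low and 291 ± 20 in young. Its lowest and highest libraries were at 261 and 290.4 TPM in PLX5622, 231 and 369 in AF-high, 296 and 338 in AF-low, and 275 and 313 in young. Gabarap made up 45 ± 0.872% of the sum in PLX5622, 50 ± 1.19% in AF-high, 50.6 ± 2.22% in AF-low and 45.7 ± 0.407% in young. The share was between 44.2 and 45.9% in the PLX5622 libraries, 48.9 and 52% in AF-high, 48.1 and 52.4% in AF-low and 45.3 and 46.1% in young, so that PLX5622 and young libraries lay under all AF-high and AF-low ones. Gabarapl2 made up 12.2 ± 1.51% in PLX5622, 7.45 ± 1.43% in AF-high, 8.95 ± 3.05% in AF-low and 13.5 ± 0.199% in young, with the PLX5622 libraries (10.3 to 13.8%) above all AF-high ones (5.04 to 8.51%), which were also under all young ones (13.3 to 13.6%). These shares were looked at after the values of the genes were known and are given with no test.

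**Figure D3:**
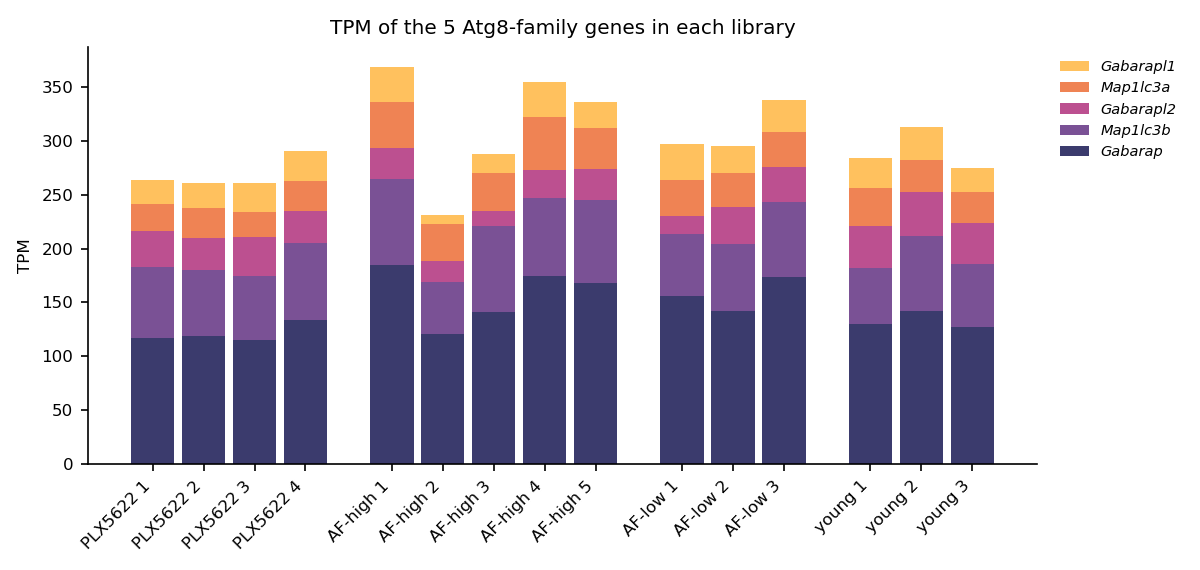
Level of the 5 Atg8 genes in each library in TPM, stacked in 1 bar per library from 0, with the libraries grouped as PLX5622, AF-high, AF-low and young. The bars end at 261 to 290.4 TPM in PLX5622 and are lowest in AF-high 2 (231 TPM). Gabarap, the bottom segment, takes 44.2% to 45.9% in PLX5622, 48.1% to 52.4% in AF-high and AF-low, and 45.3% to 46.1% in young.

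Of the cargo receptors, Optn was the one that stood apart, with higher values in all old groups than in young cells. Optn encodes optineurin, a ubiquitin receptor that is phosphorylated by Tbk1 and takes part in clearing mitochondria and bacteria. Optn (chr2:5020642-5064051, minus strand) was at 31.5, 32, 43.6 and 42.1 TPM in PLX5622, 45.5, 55.4, 51.5, 31.7 and 58.7 in AF-high, 74.6, 35.8 and 50.1 in AF-low and 24.9, 28.5 and 21.3 in young. Every library of each old group was above all 3 young libraries. The difference from young was 0.56 ± 0.25 in PLX5622 (interval 0.031 to 1.09, adjusted p = 0.934), 0.91 ± 0.24 in AF-high (interval 0.41 to 1.42, adjusted p = 0.176) and 1.02 ± 0.26 in AF-low (interval 0.46 to 1.58, adjusted p = 0.166). Without AF-low 2 the AF-low difference was 1.27 and passed (adjusted p = 0.0367, range over alternatives 0.0367 to 0.998). With library weights the AF-high difference passed (0.92, adjusted p = 0.0444, range 0.0444 to 0.999). Over all genes these settings called 182 and 129, against 6 and 0 as reported. PLX5622 and AF-high differed by -0.36 ± 0.22 (interval -0.82 to 0.11) and PLX5622 and AF-low by -0.46 ± 0.25 (interval -0.99 to 0.066), intervals that include 0. The differences from young share the 3 young libraries. With young 1 and young 2, the libraries rich in choroid plexus transcripts, left out together, the difference from the remaining young library was 0.77 in PLX5622, 1.12 in AF-high and 1.23 in AF-low, with no call (adjusted p = 1, 0.999 and 0.998); the lone young library was there assumed to vary like the libraries of the other groups.

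Sqstm1 and Tax1bp1, the most abundant receptors, did not separate the groups. Sqstm1 was at 866, 834, 815 and 962 TPM in PLX5622, 1078, 816, 502, 827 and 979 in AF-high, 962, 786 and 912 in AF-low and 546, 806 and 897 in young. AF-high spanned the whole range of the 15 libraries, with AF-high 3 the lowest and AF-high 1 the highest of all. Sqstm1 differed by 0.24 ± 0.22 between PLX5622 and young (interval -0.24 to 0.72), 0.15 ± 0.21 between AF-high and young (interval -0.31 to 0.61) and 0.27 ± 0.24 between AF-low and young (interval -0.24 to 0.78). Of its 31-base words 16.4% are shared, mostly with Mrnip, whose exons overlap it on the opposite strand. Tax1bp1, which also binds ubiquitin and LC3, was among the steadiest members, at 212 ± 10.2 TPM in PLX5622, 207 ± 19.8 in AF-high, 233 ± 15.6 in AF-low and 211 ± 23.2 in young. Nbr1, a partner of p62, was at 42.3 ± 4.83, 40 ± 10.7, 36.6 ± 2.58 and 45.5 ± 3.03 TPM, and Calcoco1, a receptor for the endoplasmic reticulum, at 18.8 ± 3.25, 27.3 ± 10.3, 22.6 ± 10.9 and 18.5 ± 0.798 TPM, in the same order of groups. The AF-low libraries of Nbr1 (34.7, 35.7 and 39.6 TPM) lay under all young ones (48.8, 42.7 and 45.1 TPM; difference -0.31 ± 0.23, limma adjusted p = 0.631). Such a lack of overlap was met by 6 of the 40 members in that comparison (all genes 19.3%).

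Among the regulators, Tfe3 was lower in PLX5622 than in both other old groups, short of the threshold. Tfe3 and Tfeb are the factors that drive genes of lysosomes and autophagy when mTOR is inactive. Tfe3 (chrX:7762560-7775202, plus strand) was at 94.3, 84.9, 69.3 and 86.1 TPM in PLX5622, 112, 152, 83.3, 102 and 145 in AF-high, 124, 113 and 127 in AF-low and 83.9, 120.2 and 106 in young. All PLX5622 libraries were under all AF-low ones, AF-high 3 and young 1 lay within the PLX5622 range, and the other AF-high and young libraries were above it. The difference was -0.48 ± 0.17 against AF-high (interval -0.84 to -0.11, adjusted p = 0.202), -0.54 ± 0.20 against AF-low (interval -0.95 to -0.12, adjusted p = 0.235) and -0.29 ± 0.20 against young (interval -0.71 to 0.13, adjusted p = 0.979). Tfeb was at 22, 23.8, 11.9 and 20.1 TPM in PLX5622, 9.87, 11.4, 27.7, 43 and 12.6 in AF-high, 22.4, 21.6 and 18.9 in AF-low and 20.3, 22.4 and 32.6 in young, and was the most scattered member in AF-high. Mitf, of the same family, and the mTOR genes overlapped between groups in every comparison. Mitf was at 28.9 ± 4.04 TPM in PLX5622, 25.1 ± 4.78 in AF-high, 27.9 ± 2.98 in AF-low and 25.7 ± 1.09 in young. Mtor was at 18.7 ± 3.15 TPM in PLX5622, 22.3 ± 7.55 in AF-high, 21.5 ± 4.37 in AF-low and 19.8 ± 3.22 in young. Rptor, which encodes raptor, was at 62.9 ± 5.47, 69 ± 11.9, 75.6 ± 20 and 73.4 ± 6.01 TPM in the same order. None of these 3 genes (0) reached an unadjusted p under 0.05, near the background of 5.23% to 15.3% of all genes per comparison.

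**Figure D4:**
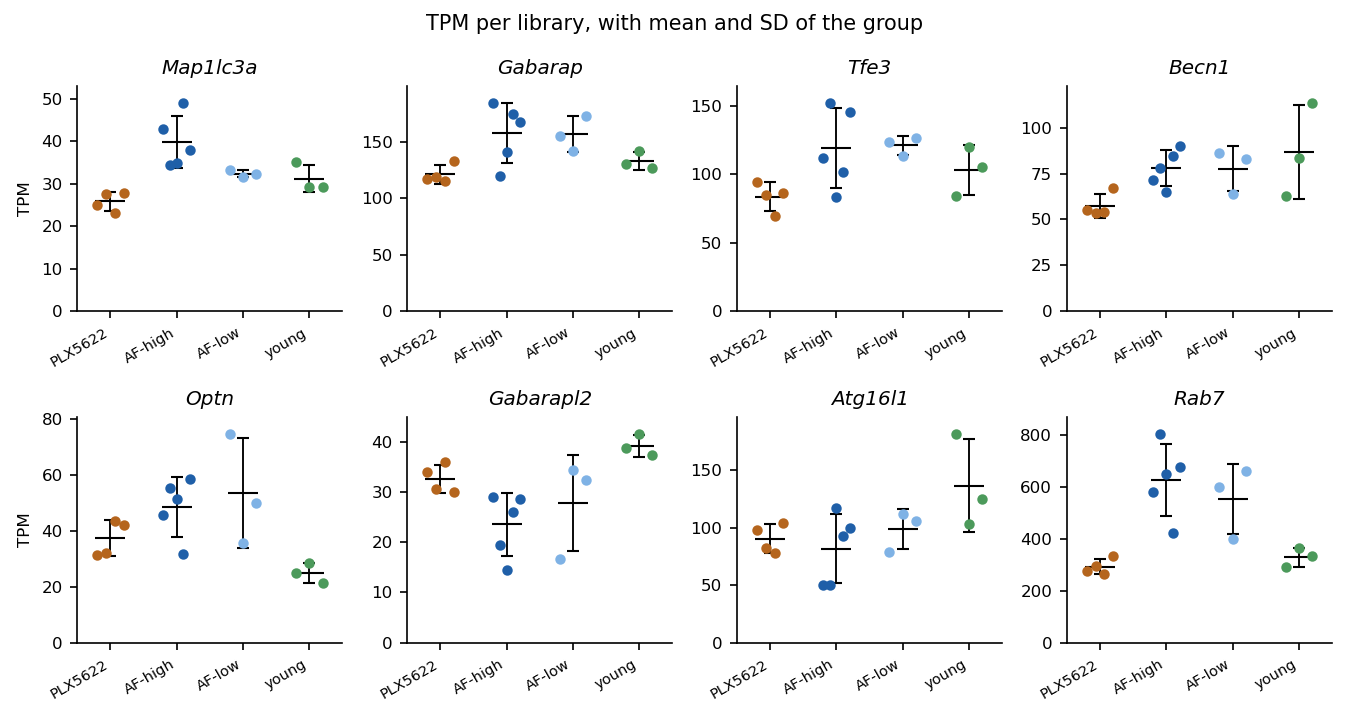
Level in TPM of 8 genes in every library, on axes from 0; each point is 1 library, with the groups PLX5622, AF-high, AF-low and young from left to right, and the lines give the group mean and SD. Map1lc3a is under 28 TPM in all PLX5622 libraries and over 29 TPM in all others, Optn is over 31 TPM in all old libraries and under 29 TPM in all young ones, and Rab7 is at most 334 TPM in the PLX5622 libraries and at least 400.8 TPM in the AF-high and AF-low ones.

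The rest of the pathway was read from 91 further genes, of which 85 were in the table and tested. They cover other early factors (17 genes tested), mitophagy and ER-phagy (16), fusion with lysosomes (14), mTORC1 and AMPK signalling (31) and regulators of transcription of autophagy genes (7). Of the 85, 1 passed the test, Rab7 in PLX5622 against AF-high (all genes 0.63%). In each other comparison 0 passed (all genes 0% to 0.144%). A count of 1 or 0 among 85 is near these backgrounds. At an unadjusted p under 0.05 there were 4 higher and 13 lower in PLX5622 against AF-high, 2 and 10 against AF-low and 1 and 0 against young. There were 2 higher and 3 lower in AF-high against AF-low, 5 and 10 in AF-high against young and 5 and 3 in AF-low against young. In PLX5622 the shares in both directions together were 20% against AF-high (15.3% of all genes), 14.1% against AF-low (14.3%) and 1.18% against young (5.23%). They were 5.88% in AF-high against AF-low (8.21% of all genes), 17.6% in AF-high against young (11%) and 9.41% in AF-low against young (11.8%), and nothing particular to the pathway is read from them.

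Rab7 is the small GTPase of late endosomes that recruits the machinery for fusion with lysosomes, and it fell in PLX5622 cells relative to AF-high cells. Rab7 (chr6:87999106-88045270, minus strand) was at 278, 296, 266 and 334 TPM in PLX5622, 581, 804, 649.5, 423 and 678 in AF-high, 602, 401 and 661 in AF-low and 289.8, 365 and 332 in young. All PLX5622 and young libraries lay under all AF-high and AF-low libraries. In PLX5622 against AF-high Rab7 had 293 ± 29.9 TPM against 627 ± 139.8 TPM (log2 -1.07 ± 0.18, interval -1.45 to -0.68, limma adjusted p = 0.0231). The call ended without PLX5622 1 (adjusted p = 0.0945), PLX5622 2 (0.0698), PLX5622 3 (0.105) or PLX5622 4 (0.053), with only the 2 groups in the fit (0.059), and without young 1 and 2 together (0.0622), while the log2 difference kept its sign; over all alternatives the adjusted p ran from 0.00729 to 0.105. Rab7 differed by -0.89 ± 0.20 between PLX5622 and AF-low (adjusted p = 0.0919; 0.0214 without AF-low 2, range 0.0214 to 0.307), by 0.90 ± 0.20 between AF-high and young (adjusted p = 0.121; 0.0416 without AF-high 4, range 0.0254 to 0.999) and by 0.73 ± 0.22 between AF-low and young (adjusted p = 0.213; 0.0489 without AF-low 2, range 0.0489 to 0.998). The summed markers of border-associated macrophages were likewise lower in PLX5622 and young than in AF-high and AF-low, and their part in the Rab7 result was not tested. In PLX5622 against young Rab7 differed by -0.16 ± 0.20 (interval -0.60 to 0.27). Of its 31-base words 18.4% are shared, chiefly with the pseudogene Rab7-ps1.

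Of the 14 fusion genes tested, 4 were lower and 0 higher at an unadjusted p under 0.05 in PLX5622 against AF-high (28.6%, against 15.3% of all genes), and Rab7 alone of these passed. Snap29, the SNARE that pairs with Stx17 on autophagosomes, is given here after its values were seen. It was at 10.3, 13.7, 10.2 and 11.3 TPM in PLX5622, 18.6, 23.5, 18.3, 16.8 and 20 in AF-high, 15.2, 12.3 and 10.5 in AF-low and 12.5, 13.2 and 14.5 in young. AF-high was above every library of the other groups. The difference was -0.73 ± 0.16 in PLX5622 against AF-high (adjusted p = 0.0529) and 0.59 ± 0.17 in AF-high against AF-low (adjusted p = 0.471). Depdc5, a subunit of the GATOR1 complex that restrains mTORC1, was at 16.9 ± 3.7 TPM in AF-high and 26.7 ± 4.04 TPM in AF-low (-0.64 ± 0.21, adjusted p = 0.477). Prkab2, a beta subunit of AMPK, was at 12.4 ± 3.94 TPM in AF-high and 6.06 ± 0.617 TPM in young (0.87 ± 0.28, adjusted p = 0.264). Tmem41b, a lipid scramblase of the endoplasmic reticulum, was at 92 ± 23.5 TPM in AF-low and 60.7 ± 5.08 TPM in young (0.57 ± 0.22, adjusted p = 0.309). In PLX5622 against young, where no pathway gene came near the threshold, Prkaa2, a catalytic subunit of AMPK, was at 2.38 ± 0.434 TPM in PLX5622 and 1.28 ± 0.576 TPM in young (0.59 ± 0.27, adjusted p = 0.948), and the segregase Vcp differed by -0.32 ± 0.17 (adjusted p = 0.963).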

How the data were processed

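RNA of sorted mouse microglia was measured in 15 libraries of 4 groups. Per the labels' protocols, total RNA was isolated on columns and amplified (Ovation) before low-input library preparation. The authors deposited TPM, 1 value per gene symbol and library, apart from 1 symbol that was listed more than once. FastQC 0.11.8, Salmon 1.0.0, DESeq2 and the build GRCm38 are named, without their roles, per the submitters' processing notes. The index and the filter are not stated in these sources. The table held no 0 (0 values), 19 symbols had become dates, and library totals were 956489 to 963145 TPM. Depth in reads is unknown, so no counting interval is given.

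Groups were taken from the labels. Values were used as log2(TPM + 1), which understates fold changes of low genes, for the 13175 genes with at least 1 TPM in at least 3 libraries. All 15 libraries entered 1 fit (limma 3.58.1, R 4.3.3; lmFit, then eBayes with trend on each contrast; 11 residual and 4.151 prior degrees of freedom). Two-sided tests were used, with Benjamini-Hochberg adjustment over all 13175 genes within each of 6 comparisons and a threshold of 0.05; every adjusted p is from that fit or the named alternative of it. The fit was tested on simulated data that gave each gene 1 spread in all 4 groups. Such data cannot test the effect of the unequal scatter between groups. The members, the other pathway genes, the markers and the tests were chosen with earlier results of these data known. Per comparison, members past the threshold and the 3 with the smallest p are given in full, with the pathway genes past it or the 2 with the smallest p; all Atg8 genes are given per library. Of the genes this rule names, 1 pathway gene is not reported here. Coordinates and shared 31-base words are from GENCODE M21 transcripts of GRCm38, promoter windows from RefSeq (GRCm38.p6). Alternatives were other pseudocounts, filters, scalings and variance models, library weights, a replicate block, the 2 compared groups alone, and each library left out. Figures were drawn with matplotlib 3.10.9 in Python 3.11.15.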

Additional observations from a re-analysis of the deposited data

Results flagged for a closer look

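In 80 tests of 1 gene in 1 group of 4 or 5 libraries, 2 libraries lay far from the rest of their group by Dixon's criterion, which chance meets in about 1 of 20 groups. Becn1 was at 67.14 TPM in PLX5622 4, the highest of that group, while the other 3 libraries lay between 53.49 and 54.98 TPM. Map1lc3b was at 48.77 TPM in AF-high 2, the lowest of that group, while the other 4 libraries lay between 71.76 and 79.79 TPM. AF-high 2 also had the lowest summed level of the 5 Atg8 genes in its group (231 TPM). Groups of 3 libraries, AF-low and young, were not tested in this way.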

How the results depend on the processing

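No member was called in AF-high against AF-low or in PLX5622 against AF-low under any of the 27 alternatives (0). In AF-high against young 1 was called with library weights (Optn), a setting that called 129 genes in all. In PLX5622 against AF-high 1 was called with a filter at 5 TPM (Map1lc3a), 2 with library weights and 2 without AF-high 2, AF-high 3 and AF-low 1 together (Map1lc3a and Gabarap in both). Over all genes these settings called 118, 441 and 286, against 83 as reported, so more genes of any kind were called there. In PLX5622 against young 2 were called with library weights (Ambra1 and Becn1), where 420 genes were called in all. Leaving out 1 library at a time gave 0 to 1 called members in AF-low against young and in PLX5622 against AF-high, and 0 in each other comparison. Over all genes it gave 0 to 182 calls in AF-low against young and 1 to 205 in PLX5622 against AF-high. Ulk2 in AF-high against AF-low had -0.0889 without the 3 libraries named above, the only named gene to change sign. The cause of these changes was not tested.

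The labels do not state whether libraries of different groups, such as AF-high and AF-low, came from the same animals. Deviations of same-numbered libraries from their group means had correlations of -0.0813 to 0.1413, and the replicate numbers were not taken as pairing. So few correlations cannot exclude pairing, under these or other numbers. With a replicate block 0 members were called in every comparison, and Rab7 in PLX5622 against AF-high had -1.03 with adjusted p = 0.104. Calls over all genes moved widely over the alternatives: 0 to 441 in PLX5622 against AF-high (83 as reported, 0 with the block, 441 with library weights), 0 to 398 in PLX5622 against AF-low (19; 398 without AF-low 2), 0 to 420 in PLX5622 against young (12; 420 with library weights), 0 to 1 in AF-high against AF-low (0), 0 to 129 in AF-high against young (0; 129 with library weights) and 0 to 182 in AF-low against young (6; 182 without AF-low 2). Prkaa2 could not be tested with the filter at 5 TPM. With 3 to 5 libraries a group and depth unknown, differences smaller than the reach of the intervals were not detectable. Larger ones could also go uncalled, because calls used p adjusted over all genes tested. Optn in AF-low against young had 1.02 (interval 0.46 to 1.58) and was not called (limma adjusted p = 0.166). Gabarapl2 in AF-high against young had -0.75 (interval -1.27 to -0.23) and was not called either (limma adjusted p = 0.278).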
